A study of Arabidopsis thaliana with 18 samples.

Results

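The genes examined encode the nuclear subunits of both photosystems, their light-harvesting antennae, the electron carriers between and after them, the Rubisco small subunit and Rubisco activase of Arabidopsis thaliana. They were taken by name from a fixed list, and 51 of the 32678 genes in the table belonged to it. All 51 were found in the table, and all 51 passed the filter on low counts. They fell into 8 roles: the major antenna of photosystem II with 9 genes, its minor antenna with 5, the antenna of photosystem I with 6, the oxygen-evolving side of photosystem II with 6, other photosystem II subunits with 4, photosystem I subunits with 12, electron carriers with 4, and Rubisco small subunit and activase with 5.

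In leaves, chlorophyll-binding antenna proteins pass light energy to the reaction centres of photosystems II and I, electrons drawn from water run through both via plastocyanin and ferredoxin, and Rubisco fixes CO2 with the energy so stored. The reaction-centre cores and the Rubisco large subunit are encoded in the chloroplast, whereas the antennae, many peripheral subunits and the Rubisco small subunit are encoded in the nucleus and imported. Messenger RNAs of this nuclear set are among the most abundant in a leaf, and are known to respond to light, to the circadian clock and to stress.

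The series set leaves of 35S:RPS4-HS (35S:RPS4 hereafter), a Col-0 line in which the constitutive 35S promoter drives the TIR-type immune receptor gene RPS4, against leaves of Col-0. All plants were kept at 28 °C until 3.5 weeks old, and leaves were harvested at that temperature (0 h) or once plants had spent 4 h or 8 h at 19 °C, the cooler setting in which the overexpressed receptor becomes active with no pathogen present. Each of the 6 groups, 35S:RPS4 at 0 h, 4 h and 8 h and Col-0 at 0 h, 4 h and 8 h, held 3 libraries. The labels name 1 transgenic line, and are silent on whether replicates are different plants, so that p-values here reflect nothing more than the spread among these libraries. Within a line, the time since cooling and the hour of the day cannot be told apart.

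Values are CPM, the reads of a gene per 1000000 reads counted in genes after scaling of library sizes by the trimmed mean of M-values (TMM), with n = 3 libraries per group throughout. A log2 fold change (log2FC) is 35S:RPS4 over Col-0 unless stated, and is given ± SE. A gene is said to have changed, risen or fallen where edgeR's quasi-likelihood test gave a Benjamini-Hochberg adjusted p under 0.01 over 20023 tested genes together with an absolute log2FC above 1. Where the lines are compared, risen and fallen mean higher and lower in 35S:RPS4 than in Col-0 at that time, not a change since 0 h. Libraries held 23876651 to 36291942 counts in genes, at which 3 counts in a library correspond to 0.0845 to 0.15 CPM. RPS4 itself stood at 665 to 2604 CPM in the 9 libraries of 35S:RPS4 and at 12.2 to 20.1 CPM in the 9 of Col-0. Scaling factors ran from 0.797 to 1.15, and were lowest in 35S:RPS4 at 4 h, at 0.797 to 0.838, against 1.09 to 1.13 in Col-0 at 4 h. With library totals alone, the median log2FC of all tested genes moved to -0.43 at 4 h and -0.34 at 8 h, against -0.01 and -0.10 with TMM, so that changes below are relative to the bulk of genes.

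The stretches upstream of 5 members are shown because they stand for the contrasts that the values turn on: LHCB2.2 and LHCB2.3, which fell furthest, LHCB1.4 and LHCB1.5, which lie head to head with 1038 bases between them and moved in opposite directions after the shift in 35S:RPS4, and RBCS2B, which holds more GATAAG matches than any other member. Each is the 250 bases before the annotated gene start, read 5′ to 3′ on the strand of the gene from the genome TAIR10.1, and capitals mark CACGTG (the G-box core), GATAAG (the I-box) and CCAATC on either strand. The positions are chr2:1800473-1800722 (minus strand) for LHCB2.2, chr3:10255656-10255905 (plus) for LHCB2.3, chr2:14524357-14524606 (plus) for LHCB1.4, chr2:14523569-14523818 (minus) for LHCB1.5 and chr5:15382072-15382321 (minus) for RBCS2B.
LHCB2.2: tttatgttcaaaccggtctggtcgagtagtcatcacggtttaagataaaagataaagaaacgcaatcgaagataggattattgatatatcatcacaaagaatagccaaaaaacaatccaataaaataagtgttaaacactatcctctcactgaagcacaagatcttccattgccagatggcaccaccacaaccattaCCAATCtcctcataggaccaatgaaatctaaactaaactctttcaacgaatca
LHCB2.3: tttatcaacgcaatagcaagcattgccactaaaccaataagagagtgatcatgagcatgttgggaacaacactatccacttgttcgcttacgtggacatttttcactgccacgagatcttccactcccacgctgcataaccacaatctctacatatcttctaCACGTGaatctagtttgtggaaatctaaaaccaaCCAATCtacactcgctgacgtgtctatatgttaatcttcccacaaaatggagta
LHCB1.4: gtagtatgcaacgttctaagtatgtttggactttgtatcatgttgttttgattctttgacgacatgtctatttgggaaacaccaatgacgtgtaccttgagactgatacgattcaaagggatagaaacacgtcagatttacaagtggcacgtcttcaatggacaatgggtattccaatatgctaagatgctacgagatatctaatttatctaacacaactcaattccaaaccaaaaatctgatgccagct
LHCB1.5: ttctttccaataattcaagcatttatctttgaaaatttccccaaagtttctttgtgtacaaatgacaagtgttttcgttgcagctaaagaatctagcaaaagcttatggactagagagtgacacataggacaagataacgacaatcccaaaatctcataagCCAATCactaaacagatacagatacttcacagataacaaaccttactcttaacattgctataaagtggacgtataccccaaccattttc
RBCS2B: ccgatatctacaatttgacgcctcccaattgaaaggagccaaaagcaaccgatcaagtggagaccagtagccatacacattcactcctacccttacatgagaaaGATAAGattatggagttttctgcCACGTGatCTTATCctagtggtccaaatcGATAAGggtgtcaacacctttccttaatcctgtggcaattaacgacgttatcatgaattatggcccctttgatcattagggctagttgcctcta

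LHCB2.3 thus holds 1 CACGTG and 1 CCAATC, LHCB2.2 and LHCB1.5 hold 1 CCAATC each, LHCB1.4 holds none of the 3, and RBCS2B holds 1 CACGTG and 3 GATAAG. Over all members, CACGTG stood upstream of 9 of 51 genes (17.6%), against 6.49% of 27443 protein-coding genes searched in the same way. GATAAG stood upstream of 13 members (25.5%, against 12.3%) and CCAATC upstream of 14 (27.5%, against 10.2%). Searched likewise on both strands, AAAAATCT (CCA1-binding site) had 9.8% against 6.69%, and the evening element AAAATATCT 1.96% against 2.36%. The W-box forms TTGACC and TTGACT, alike but for the last letter, had 9.8% against 12.2% and 9.8% against 19.1%. CGCGT had 7.84% against 6.87%. It covers only part of CGyG (y is C or T), the core that the paper gives for CAMTA factors. CGyG as a whole was not searched. These are matches of letters in a window, and no binding was measured.

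Before the shift the 51 genes did not differ detectably between the lines. At 0 h, 0 of 51 had changed in edgeR, and 0 in DESeq2 and in limma voom, with 1 (RCA, 0.37 ± 0.16) at an unadjusted p under 0.05. Of all tested genes 0.00999% were higher in 35S:RPS4 and 0% were lower. The members' log2FC ran from -0.61 to 0.37 with a median of 0.08, against 0.00 over all genes. Leaving out Col-0 0 h replicate 1 moved that median to 0.24 and leaving out Col-0 0 h replicate 2 to -0.03, so its sign rests on single libraries.

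At 4 h, 3 of 51 genes were called lower in 35S:RPS4 than in Col-0 and 0 higher, against 12.4% lower and 16.6% higher of all tested genes. The 3 were LHCB2.3, LHCB2.2 and LHCB1.4, all of the major antenna of photosystem II. None of them was called within 35S:RPS4 at 4 h against 0 h, and the mean of LHCB1.4 there went up from 408 to 551 CPM. A lower level at an adjusted p under 0.01, whatever the fold, was found for 6 members (18.4% of all genes), the 3 above with LHCB4.2, LHCB2.1 and LHCA6. Both counts lay below the background shares. The members' median was -0.23, against -0.01 over all genes. The 3 libraries of 35S:RPS4 all lay below those of Col-0 for 25 members and all above for 2 (PSAE2 and PETC), while such a separation was found for 31.4% and 31.9% of all genes. The count depended on the scaling: with library totals alone 7 members had fallen, against 21.2% of all genes. The median of the members was then -0.66 and all 51 values were negative, whereas with TMM 11 were positive. Over all genes the split of higher and lower calls at 4 h was 3315 and 2490 with TMM, against 2659 and 4237 with library totals, and at 8 h it was 5334 and 6023, against 4580 and 6866.

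At 8 h the whole set was lower in 35S:RPS4. Of 51 genes 46 had fallen and 0 had risen, against 30.1% and 26.6% of all tested genes. The median log2FC was -2.03, a level 4.09-fold lower, against -0.10 over all genes, and values ran from -5.81 (LHCB2.3) to -0.91 (PSBS). All 51 had an adjusted p under 0.01, a mark reached with a lower level by 36.3% of all genes. In all 51, every library of 35S:RPS4 lay below every library of Col-0, as was the case for 42.2% of all genes. The 5 members short of the fold threshold were LHCB1.4, PSBR, PSAE2, PETC and PSBS, at -0.997 to -0.91, and all 5 passed it with library totals alone (-1.23 to -1.15). In bulk leaf RNA, fewer cells that express these genes and less of their RNA per cell cannot be told apart. For plants with RPS4 activated by cooling, the paper reports no detectable cell death until days later. Cell numbers were not measured in these data.

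**Figure D1:**
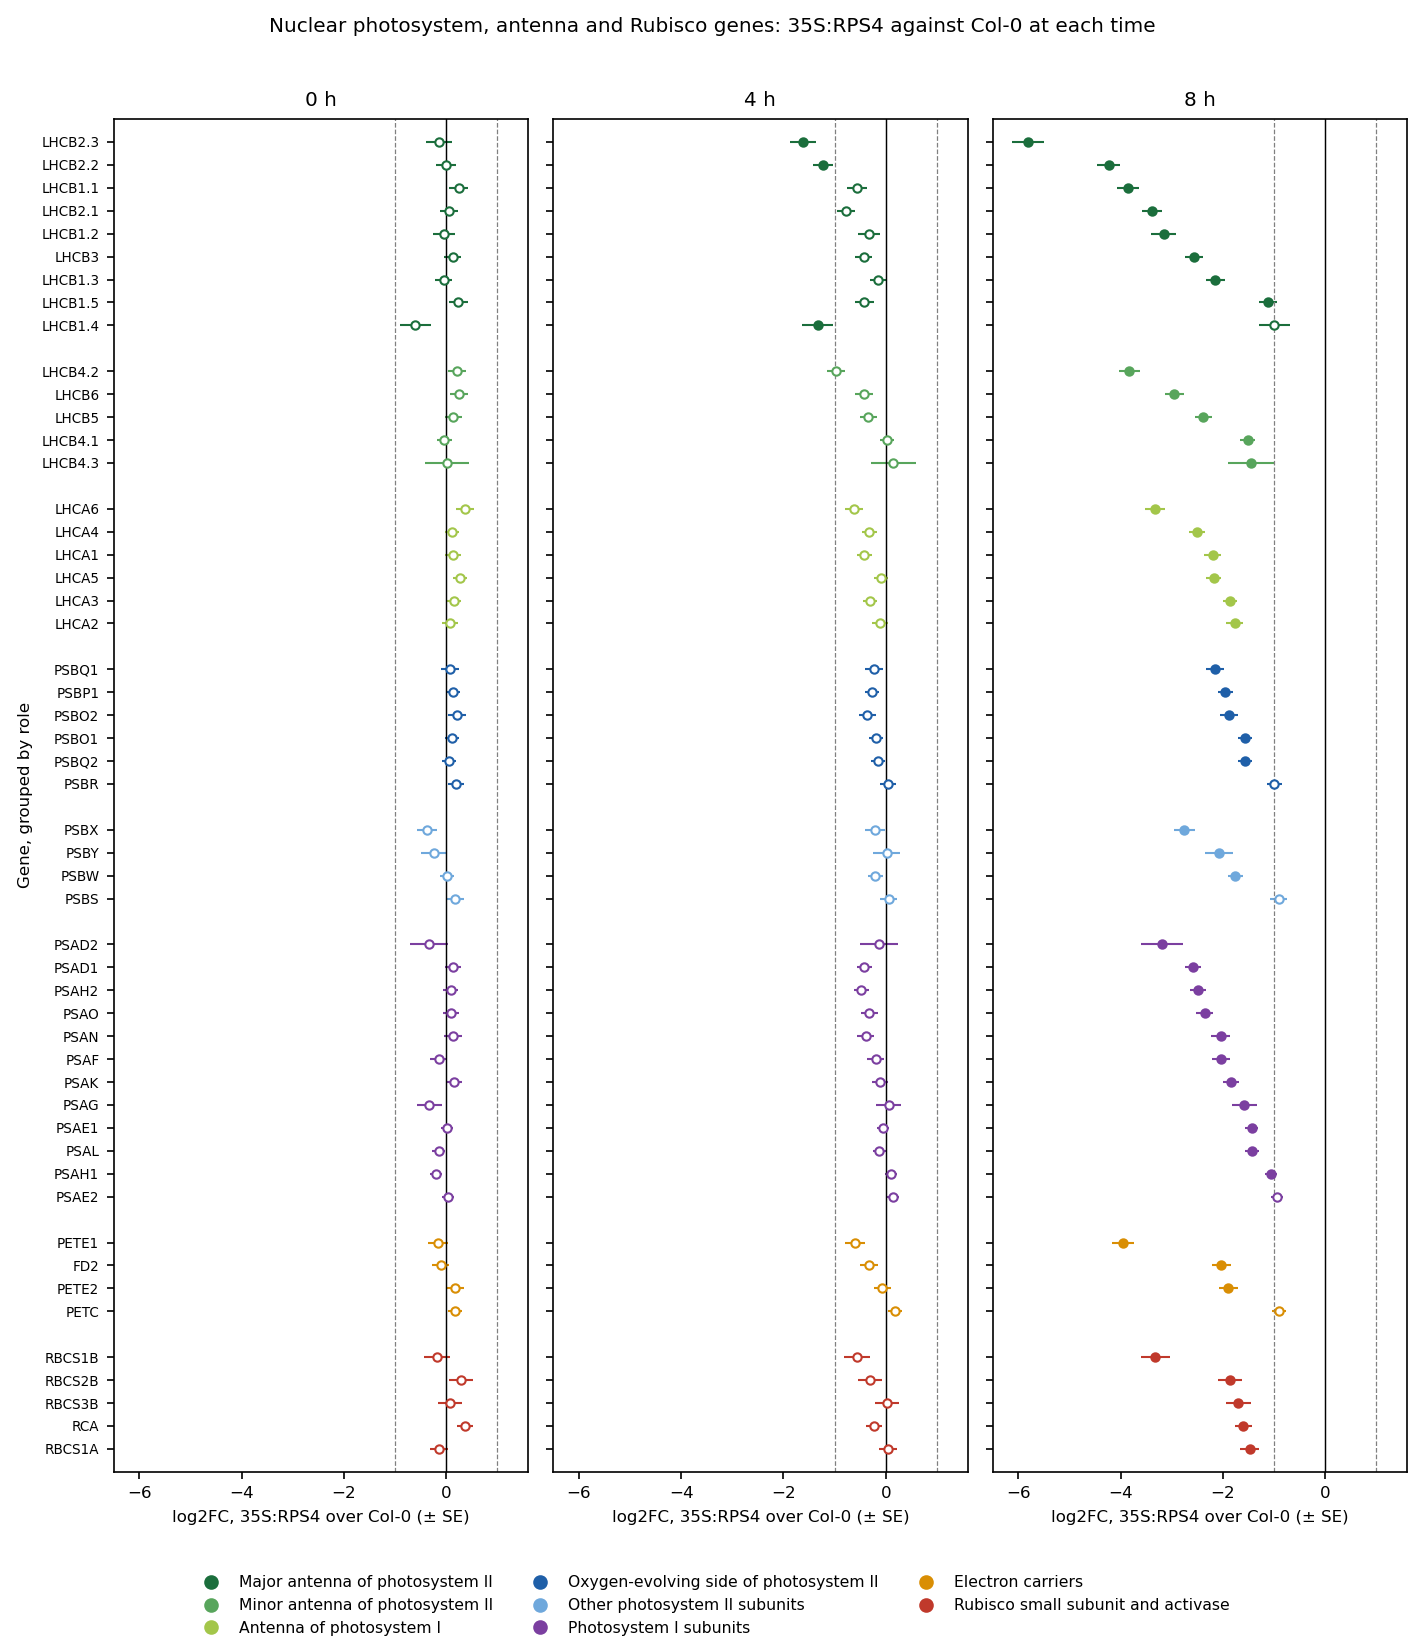
The log2FC of 35S:RPS4 over Col-0 (x axis, bars ± SE) of all 51 genes (rows, grouped and coloured by role, ordered within a role by the 8 h value) at 0 h, 4 h and 8 h, with filled points for genes that changed and dashed lines at an absolute log2FC of 1. No point is filled at 0 h, 3 are at 4 h and 46 at 8 h, all to the left.

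By role, the median log2FC at 8 h was -3.16 for the major antenna of photosystem II (8 of 9 fell), -2.38 for the minor antenna (5 of 5), -2.19 for the antenna of photosystem I (6 of 6) and -1.73 for the oxygen-evolving side (5 of 6). It was -1.92 for other photosystem II subunits (3 of 4), -1.94 for photosystem I subunits (11 of 12), -1.96 for electron carriers (3 of 4) and -1.70 for Rubisco small subunit and activase (5 of 5). The order of roles was not tested. Within the major antenna alone the values spanned -5.81 to -0.997, nearly the range of the whole set.

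**Figure D2:**
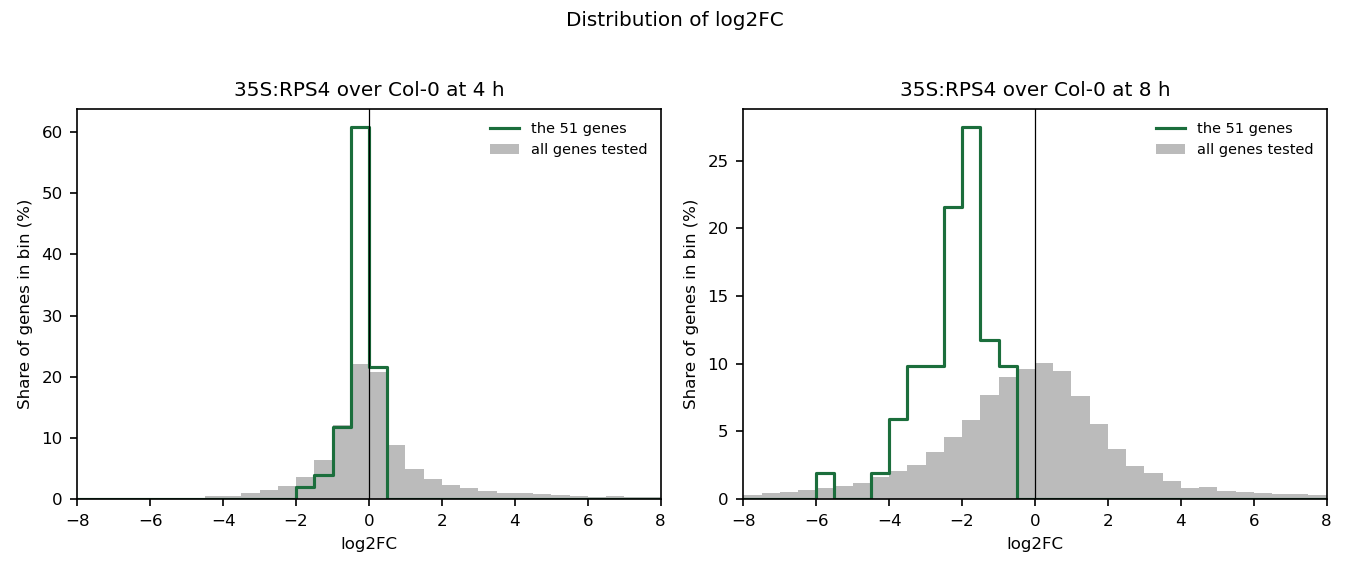
Share of genes (y axis, %) by log2FC of 35S:RPS4 over Col-0 (x axis, bins of 0.5) at 4 h (left) and 8 h (right), for all 20023 tested genes (grey bars) and the 51 photosynthesis genes (green line). The green line straddles 0 at 4 h with a median of -0.23, and lies wholly below 0 at 8 h with a median of -2.03.

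Together the 51 genes took 15.7 ± 0.7% of all gene counts in 35S:RPS4 at 0 h, 9.02 ± 0.892% at 4 h and 3.25 ± 0.18% at 8 h (SD). In Col-0 they took 15.2 ± 1.74%, 14.7 ± 0.897% and 15.4 ± 1.88%. At 0 h the libraries of the lines overlapped. At 4 h those of 35S:RPS4, at 8.11 to 9.89%, all lay below those of Col-0, at 13.7 to 15.5%. At 8 h the ranges were 3.05 to 3.4% in 35S:RPS4 and 13.3 to 16.7% in Col-0. These shares use library totals and no TMM factor, which is why they differ between the lines at 4 h by more than the CPM do. The major antenna of photosystem II alone held 3.61, 2.52 and 0.84% in 35S:RPS4 at 0 h, 4 h and 8 h, against 3.63, 4.58 and 5.07% in Col-0. For Rubisco small subunit and activase the shares were 3.62, 1.53 and 0.503% in 35S:RPS4 and 3.28, 2.26 and 1.91% in Col-0, so that this role lost part of its share in Col-0 too.

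**Figure D3:**
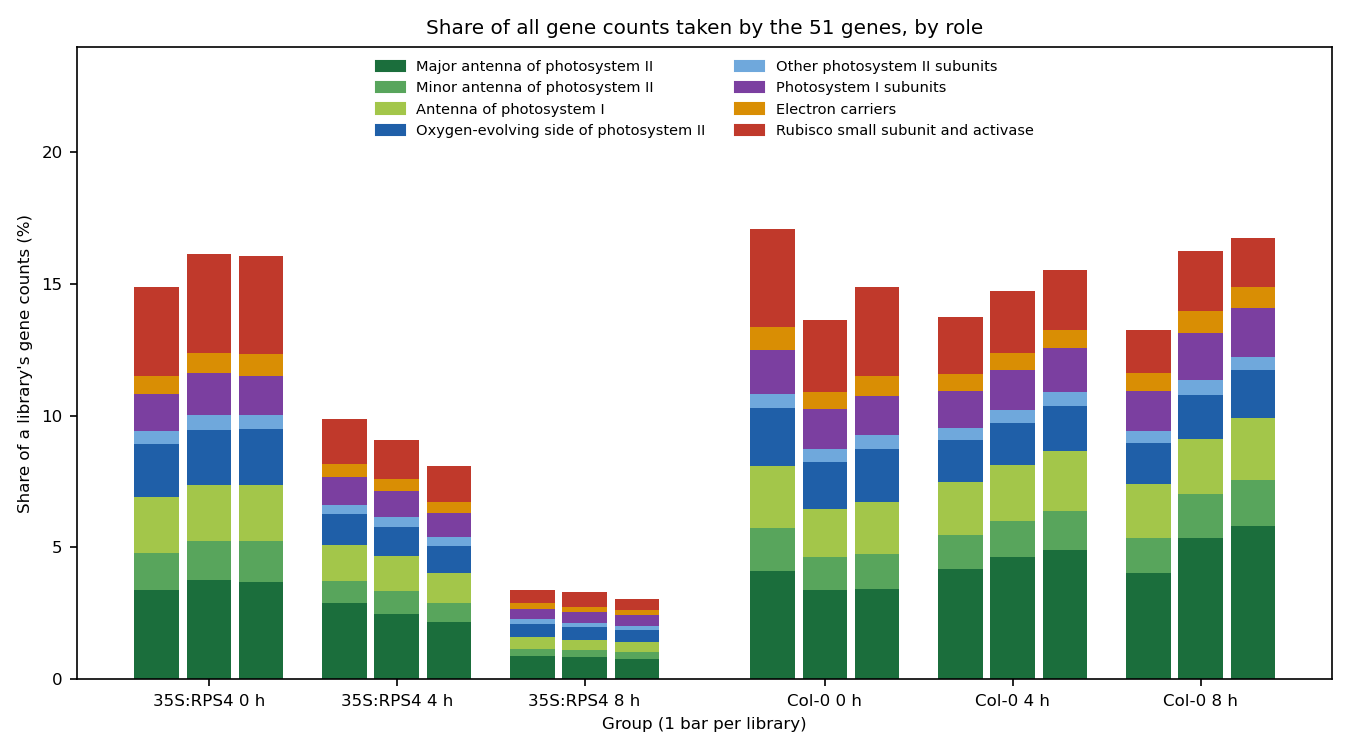
Share of each library's gene counts (y axis, %) taken by the 51 genes, stacked by role, with 1 bar per library and 35S:RPS4 on the left. The bars of 35S:RPS4 are 14.9 to 16.1% high at 0 h, 8.11 to 9.89% at 4 h and 3.05 to 3.4% at 8 h, while those of Col-0 lie between 13.3 and 17.1% at every time.

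The LHCB1, LHCB2 and LHCB3 proteins form the trimers of the major light-harvesting complex of photosystem II. The steepest fall of all 51 was that of LHCB2.3 (AT3G27690, chromosome 3, 10255906 to 10257489, plus strand, 2 exons). At 0 h the lines overlapped, with 308, 395 and 319 CPM in 35S:RPS4, against 487, 290 and 353 CPM in Col-0. At 8 h its libraries held 3.85, 4.99 and 5.03 CPM in 35S:RPS4, against 190, 311 and 282 CPM in Col-0. The log2FC was -5.81 ± 0.31 (adjusted p = 4.29e-11), a 56.2-fold difference. At 4 h it stood at 222, 164 and 128 CPM in 35S:RPS4, against 376, 558 and 644 CPM in Col-0 (-1.62 ± 0.25, adjusted p = 4.58e-05). The difference between the lines was thus present at 4 h and far larger at 8 h, with no overlap at either time.

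LHCB2.2 (AT2G05070, chromosome 2, 1799234 to 1800472, minus strand, 2 exons) showed the same course at a higher level. It had 1050, 1255 and 882 CPM in 35S:RPS4 at 4 h, against 2034, 2646 and 2758 CPM in Col-0 (-1.22 ± 0.20, adjusted p = 5.68e-05). At 8 h the values were 74.9, 65.1 and 75.2 CPM in 35S:RPS4, against 997, 1599 and 1458 CPM in Col-0 (-4.24 ± 0.22, adjusted p = 3.31e-11). LHCB2.1, the third copy, fell to 147, 122 and 139 CPM at 8 h in 35S:RPS4, against 1049, 1705 and 1499 CPM in Col-0 (-3.38 ± 0.19). At 4 h its log2FC of -0.77 ± 0.18 had an adjusted p of 0.00137 but did not reach the fold threshold. Counts of the 3 copies summed gave -3.84 ± 0.21 at 8 h and -1.01 ± 0.19 at 4 h (adjusted p = 0.000231).

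Of the LHCB1 genes, LHCB1.3 was the most abundant member of the role. At 8 h it had 3901, 3441 and 3381 CPM in 35S:RPS4, against 11982, 17936 and 17531 CPM in Col-0 (-2.15 ± 0.18, adjusted p = 1.03e-08). Its neighbour LHCB1.1, 1915 bases away, stood at 685, 518 and 494 CPM in 35S:RPS4, against 6491, 8685 and 9457 CPM in Col-0 (-3.86 ± 0.22, adjusted p = 7.77e-11). The fall of LHCB1.1 was thus steeper than that of LHCB1.3, and in counts LHCB1.1 amounted to 14.6 to 17.6% of LHCB1.3 in 35S:RPS4 at 8 h, against 48.4 to 54.2% in Col-0. LHCB1.2 (-3.16 ± 0.24), the third gene of the cluster, and LHCB3 (-2.57 ± 0.17), the remaining trimer protein, fell as well. The 5 LHCB1 copies summed gave -2.26 ± 0.19 at 8 h (adjusted p = 8.88e-09), with 7697 ± 762 CPM in 35S:RPS4, against 36800 ± 7769 CPM in Col-0.

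LHCB1.4 (AT2G34430, chromosome 2, 14524607 to 14525918, plus strand, 1 exon) went its own way among the 51. In 35S:RPS4 it had 400, 378 and 445 CPM at 0 h, 599, 572 and 481 CPM at 4 h and 1043, 1058 and 637 CPM at 8 h. In Col-0 it had 964, 496 and 404 CPM at 0 h, 1023, 1483 and 1647 CPM at 4 h and 1239, 1824 and 2406 CPM at 8 h. It rose after the shift in both lines, by 1.16 ± 0.30 on the log2 scale in 35S:RPS4 at 8 h (adjusted p = 0.00227) and by 1.55 ± 0.31 in Col-0 (adjusted p = 0.000506), and was the 1 member of 51 that was higher at 8 h than at 0 h in 35S:RPS4. Between the lines it was lower in 35S:RPS4 at 4 h (-1.33 ± 0.31, adjusted p = 0.00151). Its change from 0 h to 4 h was not called as different between the lines by the interaction test. At 8 h the log2FC of -0.997 ± 0.30 (adjusted p = 0.00655) lay at the fold threshold, which it passed at -1.21 without Col-0 8 h replicate 1 and at -1.12 without 35S:RPS4 8 h replicate 2, and at 0 h that of -0.61 ± 0.30 had an adjusted p of 0.543. The rises of the lines at 8 h differed by -0.39 ± 0.42, not detectably (adjusted p = 0.43).

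LHCB1.5 (AT2G34420, chromosome 2, 14522524 to 14523568, minus strand, 1 exon), which starts 1038 bases from LHCB1.4 and is read in the other direction, had 4591, 5291 and 5750 CPM in 35S:RPS4 at 0 h and 1979, 1893 and 1775 CPM at 8 h, a fall of 1.47 on the log2 scale. In Col-0 it stood at 3948, 4428 and 4891 CPM at 0 h and 2727, 4734 and 4804 CPM at 8 h. LHCB1.4 was 7.14 to 8.72% of LHCB1.5 in 35S:RPS4 at 0 h and 35.9 to 55.9% at 8 h, against 8.26 to 24.4% and 38.5 to 50.1% in Col-0. The balance between these head-to-head copies therefore moved the same way in both lines. At 8 h LHCB1.5 had a log2FC of -1.12 ± 0.18 (adjusted p = 2.86e-05), and at -0.99 it missed the threshold without Col-0 8 h replicate 3. An RNA gene annotated on the opposite strand covers 100% of its exon, and whether reads of that strand were counted is not given in the sources used here.

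The minor antenna proteins LHCB4, LHCB5 and LHCB6 link the trimers to the photosystem II core. LHCB4.2 (AT3G08940, chromosome 3, 2717557 to 2718923, plus strand) had 108, 79.1 and 92.3 CPM in 35S:RPS4 at 8 h, against 1099, 1347 and 1524 CPM in Col-0 (-3.83 ± 0.20, adjusted p = 4.29e-11). At 4 h it was just short of the fold threshold, with 749, 985 and 776 CPM in 35S:RPS4 against 1375, 1638 and 1910 CPM in Col-0 (-0.97 ± 0.18, adjusted p = 0.000288). Its libraries did not overlap at 4 h either, and DESeq2, at -1.01, put it past the threshold there. Its paralogue LHCB4.1 fell less, by 1.51 on the log2 scale at 8 h, and was at 0.03 ± 0.14 at 4 h. LHCB4.2 amounted to 10.9 to 12.8% of LHCB4.1 in 35S:RPS4 at 8 h and 55.6 to 64.2% in Col-0, while at 0 h it was 79.1 to 97.7% and 68.6 to 79.9%. LHCB6 stood at 669, 520 and 536 CPM in 35S:RPS4, against 3455, 4906 and 4954 CPM in Col-0 at 8 h (-2.95 ± 0.19, adjusted p = 4.45e-10). LHCB5, the most abundant of the role, had 1350, 1167 and 1117 CPM in 35S:RPS4, against 5342, 6769 and 6812 CPM in Col-0 (-2.38 ± 0.17, adjusted p = 1.83e-09). LHCB4.3 was the least abundant member at 0 h, and its fall of 1.45 ± 0.45 at 8 h (adjusted p = 0.00777) was lost on leaving out any of 5 of the 6 libraries (adjusted p of 0.0127 to 0.0362) and in limma voom (adjusted p = 0.0198).

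LHCA1 to LHCA4 form the antenna belt of photosystem I, and LHCA5 and LHCA6 are scarce antenna proteins known to join photosystem I to the NADH dehydrogenase-like complex. All 6 had fallen at 8 h. LHCA6 fell furthest, with 18.2, 16.8 and 15.4 CPM in 35S:RPS4 against 144, 194 and 168 CPM in Col-0 (-3.33 ± 0.19, adjusted p = 1.21e-10). At 4 h it had 101, 101 and 84.6 CPM in 35S:RPS4, against 135, 146 and 161 CPM in Col-0 (-0.62 ± 0.18, adjusted p = 0.00733), below the fold threshold. That adjusted p rose above 0.01 on leaving out any of the 6 libraries (0.0104 to 0.0392) and with the replicate block (0.0119). Its libraries in 35S:RPS4 thus lay below those of Col-0 at both times. LHCA4, the most abundant, had 1409, 1185 and 1226 CPM in 35S:RPS4 at 8 h, against 6832, 7042 and 7866 CPM in Col-0 (-2.51 ± 0.15, adjusted p = 1.69e-10). LHCA1 had 1166, 971 and 953 CPM in 35S:RPS4, against 4468, 4569 and 5177 CPM in Col-0 (-2.20 ± 0.16, adjusted p = 1.57e-09). LHCA5, LHCA3 and LHCA2 lay between -2.18 and -1.77. The role was the most even of the antenna roles at 4 h, with all 6 values between -0.62 and -0.09.

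PSBO, PSBP, PSBQ and PSBR sit on the lumenal face of photosystem II, where water is split. Their log2FC at 8 h ran from -2.15 (PSBQ1) to -0.99 (PSBR), and 5 of the 6 had fallen. PSBQ1 had 286, 271 and 231 CPM in 35S:RPS4, against 1056, 1300 and 1153 CPM in Col-0 (-2.15 ± 0.18, adjusted p = 1.21e-08). PSBP1 stood at 919, 811 and 778 CPM in 35S:RPS4, against 3117, 3159 and 3433 CPM in Col-0 (-1.95 ± 0.14, adjusted p = 1.79e-09). PSBO1, the main manganese-stabilizing protein, had 1303, 1128 and 1088 CPM in 35S:RPS4, against 3131, 3545 and 3796 CPM in Col-0 (-1.57 ± 0.14, adjusted p = 1.67e-08). Its copy PSBO2, also manganese-stabilizing, fell by 1.89 on the log2 scale, and the ratio of PSBO2 to PSBO1, at 26.5 to 28.4% in 35S:RPS4 and 30 to 40.1% in Col-0 at 8 h, moved little beside those of LHCB4 and LHCB1. PSBR, the most abundant of the role, had 1908, 1748 and 1658 CPM in 35S:RPS4, against 2838, 3977 and 3758 CPM in Col-0, and at -0.99 ± 0.15 (adjusted p = 1.49e-05) was not called.

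Of the other photosystem II subunits, the small membrane protein PSBX had 108, 128 and 114 CPM in 35S:RPS4 at 8 h, against 585, 1074 and 705 CPM in Col-0 (-2.76 ± 0.21, adjusted p = 2.22e-09). PSBY stood at 48.8, 46.1 and 52.8 CPM in 35S:RPS4, against at 184, 178 and 260 CPM in Col-0 (-2.07 ± 0.27, adjusted p = 2.32e-06). PSBW had 481, 479 and 470 CPM in 35S:RPS4, against 1282, 1941 and 1605 CPM in Col-0 (-1.76 ± 0.15, adjusted p = 8.74e-09). PSBS, which is not a subunit of light capture but is needed to shed excess light energy as heat, showed the smallest difference of all 51. It had 1187, 946 and 972 CPM in 35S:RPS4, against 1828, 2163 and 1835 CPM in Col-0 (-0.91 ± 0.17, adjusted p = 0.000114). At 4 h these 4 genes lay between -0.21 and 0.06.

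On the stromal side of photosystem I, PSAD and PSAE help to dock ferredoxin, and each is encoded by a pair of copies. PSAD2, the scarcer copy, had 10.7, 13.2 and 16.6 CPM in 35S:RPS4 at 8 h, against 107, 106 and 156 CPM in Col-0 (-3.19 ± 0.41, adjusted p = 2.03e-06). The Col-0 and 35S:RPS4 libraries of this gene had overlapped at 0 h, where replicates varied widely (71.8 to 172 CPM in 35S:RPS4, 95.8 to 209 CPM in Col-0). PSAD1 had 163, 163 and 185 CPM in 35S:RPS4, against 858, 1012 and 1184 CPM in Col-0 (-2.58 ± 0.16, adjusted p = 2.36e-10). The PSAE pair differed less, with -1.44 ± 0.12 for PSAE1, which fell, and -0.93 ± 0.12 for PSAE2, which was short of the fold threshold. PSAE2 amounted to 34 to 34.2% of PSAE1 in 35S:RPS4 at 8 h, above the 23.4 to 24.9% of Col-0.

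Of the subunits where the antenna docks, PSAO had 676, 608 and 574 CPM in 35S:RPS4 at 8 h and 2526, 3670 and 3337 CPM in Col-0 (-2.36 ± 0.17, adjusted p = 1.66e-09). PSAH2 fell by 2.48 and its copy PSAH1 by 1.07, so that PSAH2 was 127 to 140% of PSAH1 in 35S:RPS4 at 8 h, against 334 to 386% in Col-0. PSAH1 had 149, 149 and 145 CPM in 35S:RPS4, against 268, 312 and 346 CPM in Col-0, and at -0.98 missed the threshold without Col-0 8 h replicate 3. PSAN, on the lumenal side, had 470, 446 and 396 CPM in 35S:RPS4, against 1919, 1641 and 1861 CPM in Col-0 (-2.05 ± 0.18, adjusted p = 1.52e-08). PSAF, which binds plastocyanin there, PSAK, PSAG and PSAL lay between -2.04 and -1.43.

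Among the carriers, plastocyanin brings electrons from the cytochrome b6f complex, of which PETC is the Rieske protein, to photosystem I, and ferredoxin takes them on. PETE1, the scarce plastocyanin gene (AT1G76100, chromosome 1, 28553883 to 28554930, minus strand, 1 exon), had 4.93, 5.69 and 5.71 CPM in 35S:RPS4 at 8 h, against 65.7, 102 and 86.4 CPM in Col-0 (-3.96 ± 0.22, adjusted p = 7.28e-11). At 4 h it stood at 43.7, 33.4 and 31.3 CPM in 35S:RPS4, against 42.1, 55.5 and 66.2 CPM in Col-0, and the highest library of 35S:RPS4 lay above the lowest of Col-0. PETE2, the abundant one, had 1034, 941 and 867 CPM in 35S:RPS4, against 2885, 3910 and 3754 CPM in Col-0 (-1.89 ± 0.18, adjusted p = 4.13e-08). FD2, the main leaf ferredoxin, had 483, 510 and 461 CPM in 35S:RPS4, against 1629, 2405 and 1915 CPM in Col-0 (-2.03 ± 0.18, adjusted p = 2.05e-08). PETC, with 729, 663 and 637 CPM in 35S:RPS4, against 1131, 1442 and 1238 CPM in Col-0, differed least of the 4, with -0.91 ± 0.14 (adjusted p = 1.37e-05), and was not called.

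The Rubisco small subunit is encoded by RBCS1A on chromosome 1 and by RBCS1B, RBCS2B and RBCS3B, which lie close together on chromosome 5. RBCS1B fell furthest at 8 h, with 136, 144 and 129 CPM in 35S:RPS4 against 953, 2048 and 1093 CPM in Col-0 (-3.32 ± 0.28, adjusted p = 1.09e-08). RBCS2B had 745, 711 and 436 CPM in 35S:RPS4, against 2135, 2685 and 2051 CPM in Col-0 (-1.86 ± 0.24, adjusted p = 2.36e-06). RBCS1A, which differed least, had 2007, 2095 and 1933 CPM in 35S:RPS4, against 4009, 7388 and 5406 CPM in Col-0 (-1.48 ± 0.18, adjusted p = 1.15e-06). RBCS3B, at 711 to 1105 CPM in 35S:RPS4, against 2748 to 3717 CPM in Col-0, fell by 1.70 on the log2 scale. The mix of copies changed after the shift in both lines. RBCS1A supplied 24.2 ± 1.4% of the counts of the 4 copies in 35S:RPS4 at 0 h and 54.3 ± 5.26% at 8 h, against 28.5 ± 4.94% and 45 ± 3.71% in Col-0 (SD).

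RCA, which frees Rubisco of inhibiting sugar phosphates, stood at 18108, 18086 and 21007 CPM in 35S:RPS4, against 17180, 11045 and 16056 CPM in Col-0 at 0 h. Its level at 8 h was below that at 0 h in both lines. At 4 h it had 8604, 8754 and 7905 CPM in 35S:RPS4, against 9474, 10074 and 10152 CPM in Col-0, and at 8 h 1740, 1557 and 1395 CPM in 35S:RPS4, against 4424, 4918 and 4904 CPM in Col-0. From 0 h to 8 h it thus fell by 3.61 on the log2 scale in 35S:RPS4 and by 1.64 in Col-0, and the interaction of line and shift was -1.97 ± 0.23 (adjusted p = 7.88e-07). Between the lines at 8 h its log2FC was -1.60 ± 0.16 (adjusted p = 1.03e-07).

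**Figure D4:**
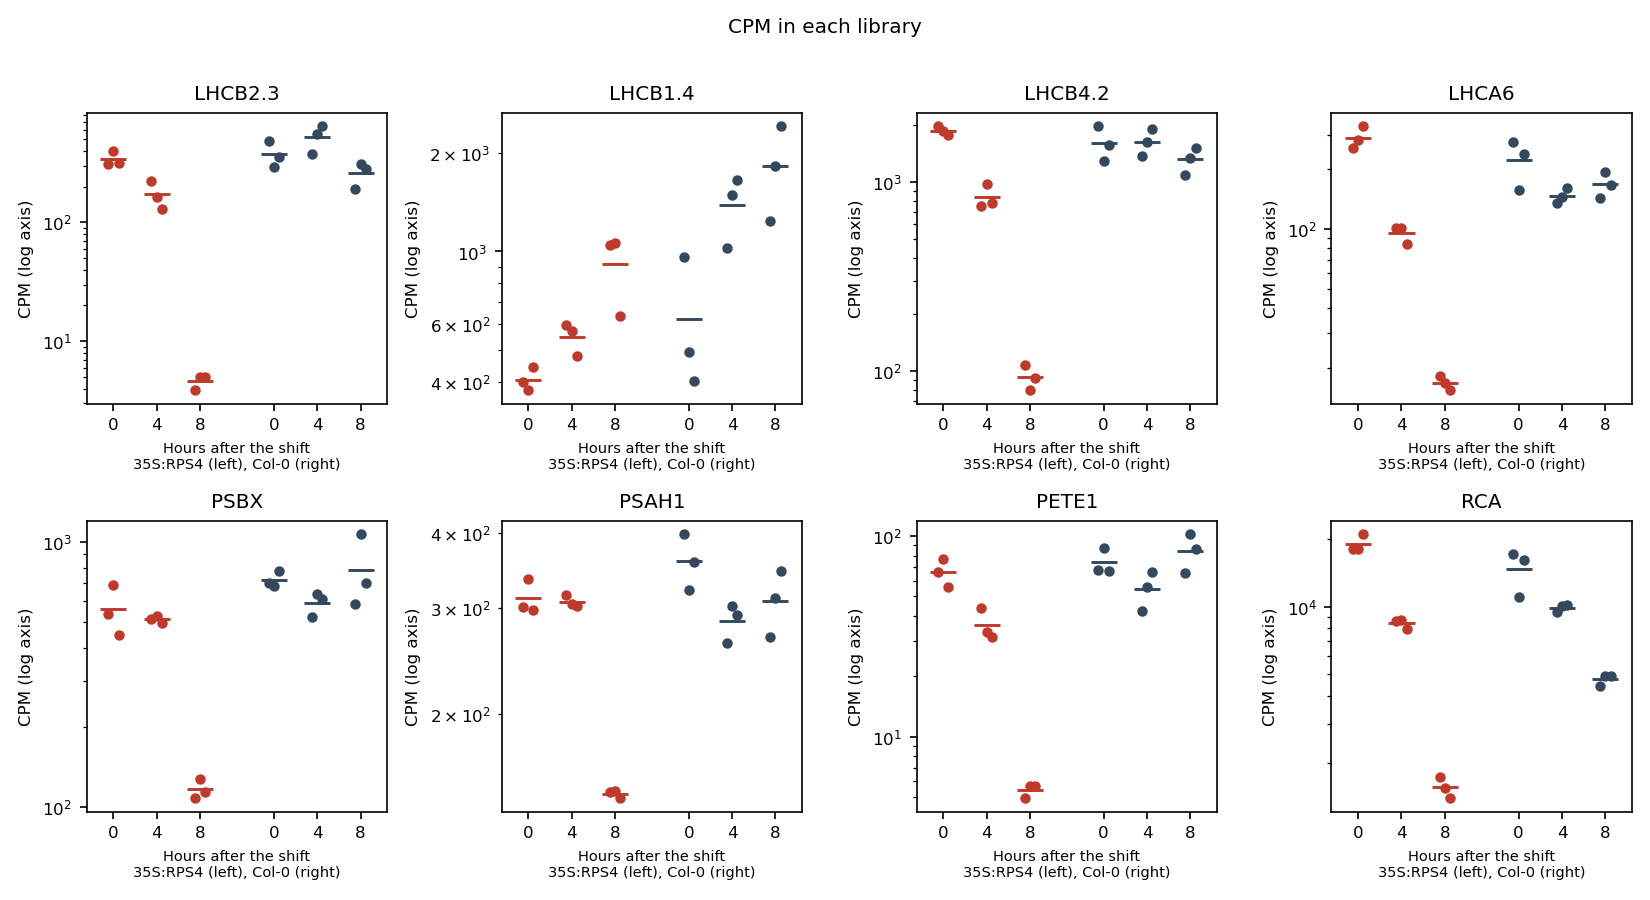
CPM (y axis, log scale) of 8 genes in each of the 18 libraries (points) by hours after the shift, 35S:RPS4 in red on the left and Col-0 in grey-blue on the right of each panel, with group means as lines. LHCB2.3 drops to 3.85 to 5.03 CPM in 35S:RPS4 at 8 h, LHCB1.4 climbs in both lines, the points of PSAH1 part between the lines only at 8 h, and RCA declines in both lines.

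Set per kilobase of merged exons, which allows levels of different genes to be compared, the order of the genes also changed. In 35S:RPS4 at 0 h RCA led with 9075 ± 800 CPM per kb (SD), followed by LHCB1.3 with 8246 ± 840 and PSBR with 7269 ± 1120, neighbours differing by less than the larger of their SDs. At 8 h LHCB1.3 led in 35S:RPS4 with 2906 ± 231 CPM per kb, ahead of PSBR with 2259 ± 162 and LHCB1.5 with 1801 ± 98.3. In Col-0 LHCB1.3 led at 0 h with 8544 ± 1469 CPM per kb, within the spread of RCA with 7025 ± 1555, and at 8 h with 12859 ± 2705, more than a spread above LHCB1.1 with 6249 ± 1171. At the low end, LHCB2.3 moved to place 51 of 51 in 35S:RPS4 at 8 h, with 3.16 ± 0.457 CPM per kb, below PETE1 with 5.19 ± 0.426 and LHCB4.3 with 5.86 ± 1.14. It had held place 46 in 35S:RPS4 at 0 h, and in Col-0 it held place 45 at 0 h and 46 at 8 h. RBCS1A took the fourth place in 35S:RPS4 at 8 h, with 1586 ± 63.8. RCA moved to place 12 in 35S:RPS4 at 8 h, and to place 18 in Col-0.

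Within 35S:RPS4, 5 of 51 genes had fallen at 4 h against 0 h and 0 had risen (14.8% of all genes fell and 18.3% rose), and 28 had an adjusted p under 0.01 with a lower level (21.8% of all genes). The 5 were LHCA6 (-1.60 ± 0.18), RBCS2B (-1.57 ± 0.24), RBCS1B (-1.43 ± 0.26), RCA (-1.18 ± 0.16) and LHCB4.2 (-1.16 ± 0.18). Without 35S:RPS4 4 h replicate 1 there were 8. At 8 h against 0 h, 50 had fallen and 1, LHCB1.4, had risen (29.7% and 26.5% of all genes), with a median of -2.26 against -0.04 over all genes.

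Within Col-0, few of the genes moved. At 4 h 1 had risen (LHCB1.4, 1.16 ± 0.30, adjusted p = 0.00962) and 1 had fallen (RBCS1B, -1.05 ± 0.26, adjusted p = 0.00647), against 3.87% and 4.79% of all genes, and both calls were lost without Col-0 0 h replicate 3, Col-0 4 h replicate 2 or Col-0 4 h replicate 3. At 8 h 2 had risen, LHCB1.4 and LHCB1.2 (1.23 ± 0.22, adjusted p = 0.000238), and 2 had fallen, RCA and RBCS2B (-1.004 ± 0.24, adjusted p = 0.00222), against 10.5% and 11.8% of all genes. With no minimum fold 6 lay higher and 4 lower (18.1% and 18.4% of all genes). The medians in Col-0 were -0.19 at 4 h and -0.17 at 8 h, against -0.02 and -0.04 over all genes. In Col-0 LHCB1.1 (0.70 ± 0.19, adjusted p = 0.00674) and PSAO (0.83 ± 0.16, adjusted p = 0.000489) also lay above their 0 h level at 8 h without reaching the fold threshold. The comparisons of 35S:RPS4 and Col-0 with their own 0 h share no libraries with each other, but each shares all its libraries with the interaction test of the same time.

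The interaction of line and shift asked whether the change since 0 h differed between the lines. At 4 h it was called for 3 of 51 genes, all with a more negative change in 35S:RPS4 (10.2% of all genes, against 15% with a more positive one): LHCB2.3 (-1.47 ± 0.35, adjusted p = 0.00291), LHCB2.2 (-1.21 ± 0.27, adjusted p = 0.00192) and LHCB4.2 (-1.18 ± 0.26, adjusted p = 0.00147). Without 35S:RPS4 4 h replicate 1 there were 5. At 8 h it was called for 47, again all negative (27.3% of all genes, against 24.9% positive), with a median of -2.08 against -0.06 over all genes. The 4 not called were LHCB1.4, LHCB4.3, PSAE2 and PSAH1. The difference of the line effect at 8 h from that at 4 h was called for 47 of 51 genes, all more negative at 8 h (22.9% of all genes, against 13.3% more positive), with a median of -1.73 against -0.26. LHCB1.4 was the 1 gene with a positive value there, at 0.33 ± 0.42 (adjusted p = 0.527).

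Genes of connected pathways, from lists drawn up with earlier results of these data known, are given by counts, to be read beside 12.4% lower and 16.6% higher calls over all genes at 4 h, and 30.1% and 26.6% at 8 h. For counts against 0 h of the same line, the shares in 35S:RPS4 were 14.8% lower and 18.3% higher at 4 h. At 8 h they were 29.7% and 26.5% in 35S:RPS4, and 11.8% and 10.5% in Col-0. Of 8 regulators of the 51 genes and of the plastid, 4 had fallen at 4 h in 35S:RPS4 and 0 had risen. These were GLK2, a transcription factor that activates antenna genes (-2.63 ± 0.18, adjusted p = 2.06e-09), the GATA factors GNC (-2.14 ± 0.23) and CGA1 (-2.48 ± 0.36), and GUN4, which stimulates chlorophyll synthesis (-1.73 ± 0.23). At 8 h 7 of 8 were lower than in Col-0 and 1 was higher, with a list median of -2.20. GNC stood at 0.197 to 0.532 CPM in 35S:RPS4, against 15.8 to 24.8 CPM in Col-0 at 8 h (-5.71 ± 0.31, adjusted p = 5.66e-11). GUN4 had 0.902 to 1.84 CPM in 35S:RPS4, against 47.2 to 67.7 CPM in Col-0 (-5.46 ± 0.29, adjusted p = 4.31e-11), and GLK2 2.06 to 2.85 CPM in 35S:RPS4, against 48.6 to 64.7 CPM in Col-0 (-4.56 ± 0.20, adjusted p = 6.35e-12). The higher one was SIGE, a sigma factor of the plastid RNA polymerase (1.25 ± 0.27, adjusted p = 0.000431). Against 0 h of the same line, all 8 regulators, SIGE among them, had fallen at 8 h in 35S:RPS4, with a list median of -5.06. All 8 had also fallen in Col-0 at 8 h against 0 h, with a list median of -1.99, whereas the median of the 51 genes was -0.17 there.

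Of 14 Calvin cycle genes 12 had fallen at 8 h with a list median of -1.42. The largest falls were those of CP12-2, a small regulator of the cycle (-3.94 ± 0.22), GAPA2, a subunit of the plastid glyceraldehyde-3-phosphate dehydrogenase (-2.87 ± 0.17), and PRK, phosphoribulokinase (-2.87 ± 0.18). Of 9 genes of ATP synthase, ferredoxin reductase and cyclic flow, 8 had fallen at 8 h (median -1.60), led by LFNR2, a leaf ferredoxin reductase (-2.95 ± 0.14), ATPD, a subunit of the plastid ATP synthase (-2.65 ± 0.15), and PSBTN, a small photosystem II protein placed in that list (-2.27 ± 0.17). LFNR2 did not fall within 35S:RPS4: it had 265 to 359 CPM at 0 h and 288 to 298 CPM at 8 h there, against 292 to 319 CPM and 2112 to 2368 CPM in Col-0. At 4 h no gene of either list had changed in edgeR, where PRK (adjusted p = 0.00905) and LFNR2 (adjusted p = 0.00124) had an adjusted p under 0.01 below the fold threshold.

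Of 9 stress proteins related to the antenna, 6 had fallen at 8 h and 0 had risen (median -1.17), led by LIL3:1 (-2.81 ± 0.15), OHP (-2.52 ± 0.14) and LIL3:2 (-2.06 ± 0.17), while the light-stress proteins ELIP1 (-0.17 ± 0.53, adjusted p = 0.772) and ELIP2 (0.47 ± 0.54, adjusted p = 0.433) did not pass the test. Of the 3 enzymes that set the phosphorylation of antenna and core, the kinase STN8 had fallen (-2.96 ± 0.18, adjusted p = 2.35e-10), and the kinase STN7 (0.33 ± 0.14) and the phosphatase TAP38 (-0.36 ± 0.12) had not. Of 7 genes of chlorophyll breakdown, 2 were higher in 35S:RPS4 than in Col-0 at both times. Against 0 h of the same line, 0 of the 7 had risen or fallen in 35S:RPS4 at 4 h. At 8 h 1 had risen and 1 had fallen in 35S:RPS4, and 1 had risen and 2 had fallen in Col-0. The log2FC between the lines at 8 h was 2.16 ± 0.18 for NYE1, which removes the magnesium of chlorophyll. It was 2.31 ± 0.21 for PPH, which takes off the phytol tail. Another gene of that list, NYC1, which reduces chlorophyll b, was lower in 35S:RPS4 than in Col-0 at 8 h (-1.38 ± 0.13). Of 12 photorespiratory genes 6 had fallen at 8 h (median -1.11), with PGLP1 (-5.23 ± 1.11), GOX2 (-2.41 ± 0.16) and the glycine decarboxylase gene AT1G11860 (-1.89 ± 0.17) at the front. Against 0 h of the same line, 11 of the 12 had fallen in 35S:RPS4 at 8 h (median -2.70) and 6 in Col-0 (median -1.15).

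Markers of other leaf cells differed by cell type, and the epidermal ones were lower at 4 h, when the median of the 51 genes was -0.23. All 4 epidermal genes (ATML1, PDF2, KCS10 and KCS6) had fallen in 35S:RPS4 at 4 h (median -1.60) and at 8 h (median -2.16). Their summed level was 79.2 to 83.5 CPM in 35S:RPS4, against 359 to 505 CPM in Col-0 at 8 h. Of 4 guard cell genes, KAT1 was higher and MYB60 lower in 35S:RPS4 than in Col-0 at 8 h. Their summed levels were 40.9 to 60.4 CPM in 35S:RPS4, against 39.2 to 48.3 CPM in Col-0. Within 35S:RPS4 at 8 h against 0 h, 1 of the 4 had risen and 0 had fallen. The 4 vascular genes had 0 calls in edgeR at 4 h and 8 h, and 67.1 to 142 CPM in 35S:RPS4 against 164 to 219 CPM in Col-0 at 8 h. Of 3 root and 3 flower genes, PRP3, SHV2, AP3 and PI did not pass the filter on low counts. Summed flower genes stayed at or below 1.45 CPM in every library, and root genes were at 2.55 to 17 CPM in 35S:RPS4, against 2.91 to 3.52 CPM in Col-0 at 8 h. Of 8 genes commonly used as references, UBQ10 was higher in 35S:RPS4 than in Col-0 at 4 h (2.73 ± 0.24) and 8 h (2.16 ± 0.24). The list median was 0.25 at 4 h and 0.50 at 8 h. Within 35S:RPS4 at 8 h against 0 h, 0 of these 8 had risen and 1 had fallen. The part of any of these marker or reference genes in the fall of the 51 genes was not tested.

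Several members are copies whose reads are hard to part. Within LHCB1.1, LHCB1.2 and LHCB1.3 the coding sequences were 95.6 to 96.4% identical, within RBCS1B, RBCS2B and RBCS3B 96.7 to 97.3%, and between LHCB2.1 and LHCB2.2 92.9%. Of all windows of 50 bases in their exons, 10.6 to 20.5% of those of LHCB1 genes and 22.7 and 28.2% of those of LHCB2.1 and LHCB2.2 recurred in another copy, against 0 for LHCB2.3, the LHCB4 genes and the pairs of PSBO, PSBQ, PSAD, PSAE, PSAH and PETE. Summed over RBCS1B, RBCS2B and RBCS3B the log2FC was -1.97 ± 0.24 at 8 h (adjusted p = 8.53e-07). Of the 51 genes 17 overlap an exon on the opposite strand, which covers most of the exons in LHCB1.5 (100%), PSAG (61.4%) and PSAH1 (53.3%) and 40.6% of those of LHCB2.3, and 2 (PSBP1 and PSAD2) overlap an exon on their own strand.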

How the data were processed

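Leaf RNA of 18 samples, 3 per group, was depleted of ribosomal RNA, reverse transcribed from oligo-dT and sequenced as read pairs, starting from 2.5 µg per sample. The deposited values are raw counts of read pairs per gene, which the authors obtained by alignment to TAIR10 (TopHat2 2.0.10, after FastQC 0.11.2) and counting in HTSeq. The HTSeq version and strand setting are not given in the sources used here, so a gene and one on its opposite strand may not be separable, and pairs that matched several places were not counted. The 5 summary lines of the table were set aside. Pairs outside genes came to 48.5 to 49.2% of the total of genes and summary lines, pairs in overlapping genes to 0.252 to 0.369% and multiply placed pairs to 1.96 to 2.85%. Libraries of a group differed far beyond sampling noise (chi-square per gene of 13.1 to 119), so none was counted as a copy.

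Genes were filtered with filterByExpr over the 6 groups, which kept 20023 of 32678. All 18 libraries then entered one edgeR 4.0.16 quasi-likelihood fit with a mean for each group and TMM scaling, in R 4.3.3, with p-values adjusted over all tested genes in each of 10 comparisons: the lines at each time, each line over its 0 h value, the line by shift interactions, and the line effect at 8 h minus that at 4 h. The tests were also tried on simulated counts that took their means and spread from this fit, with results not given here. CPM floors cover counting error only. Gene models and upstream bases came from RefSeq's TAIR10.1 (Biopython 1.88, Python 3.11.15), which held all 51 genes, and figures were drawn with matplotlib 3.10.9.

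The 51 members, the 13 lists of 88 other genes and the tests were chosen with earlier results of these data known, and the calls are no independent support for them. Values per library are given for the 2 genes of each role with the largest absolute log2FC at 8 h, the 2 with the highest mean CPM and each gene called at 0 h or 4 h. Those of LHCB2.1, LHCB1.5, PSAH1 and PETC were added after they were seen. Of each list, up to 3 called genes with the largest absolute log2FC at 8 h are named, and any further ones were added after their values were seen. Alternatives were another scaling (median of ratios, or library totals without TMM), other filters (any count, or 1 CPM in 3 libraries), DESeq2 1.42.0 and limma 3.58.1 voom, a block for the replicate number, a fit to the compared groups only, no fold threshold, omission of single libraries, and sums over the copies of LHCB1, of LHCB2 and of the RBCS genes on chromosome 5.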

Additional observations from a re-analysis of the deposited data

Results flagged for a closer look

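The change since 0 h differed between the lines, by the interaction test, for 3 of 51 genes at 4 h and 47 at 8 h. The line effect differed between 8 h and 4 h for 47. Over all genes the shares with more negative and more positive values were 10.2% and 15% for the interaction at 4 h. They were 27.3% and 24.9% for that at 8 h, and 22.9% and 13.3% for 8 h minus 4 h. The count of members at 4 h thus lay below the background shares. At 4 h the log2FC of the interaction was -1.47 for LHCB2.3, -1.21 for LHCB2.2 and -1.18 for LHCB4.2, each more negative in 35S:RPS4 than in Col-0. At 8 h the leading gene of each role had -5.67 (LHCB2.3), -4.04 (LHCB4.2), -3.69 (LHCA6), -2.23 (PSBQ1), -2.39 (PSBX), -2.85 (PSAD2), -3.80 (PETE1) and -3.14 (RBCS1B). These leading genes were picked by their line effect at 8 h, which shares libraries with the interaction, so their values are descriptions.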

How the results depend on the processing

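The line effect at 8 h kept its direction for all 51 genes under every alternative that gives single genes. With library totals alone, 7 genes were called for the line effect at 4 h (3 with TMM), 12 for 35S:RPS4 at 4 h over 0 h (5) and 7 for the interaction at 4 h (3). The shares of all genes called lower also went up with library totals. In the same order they were 21.2%, 19.7% and 16.5%, against 12.4%, 14.8% and 10.2% with TMM. With no minimum fold, calls numbered 6 for the line effect at 4 h, 28 for 35S:RPS4 at 4 h over 0 h and 10 for Col-0 at 8 h over 0 h (4). In Col-0 at 4 h over 0 h, 2 calls became 1 with median-of-ratios scaling, with library totals and with the replicate block, and 0 with only the groups of the comparison and with copies summed. In Col-0 at 8 h over 0 h, 4 became 1 with only the groups of the comparison and 1 with copies summed. Summing copies, which leaves 43 features, gave 1 call for the line effect at 4 h. The cause of these changes was not tested.

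Leaving out each library in turn gave 0 calls for the line effect at 0 h, 3 to 4 at 4 h and 44 to 48 at 8 h, 5 to 8 for 35S:RPS4 at 4 h over 0 h and 49 to 51 at 8 h, 0 to 2 for Col-0 at 4 h over 0 h and 3 to 6 at 8 h, 3 to 5 for the interaction at 4 h and 45 to 48 at 8 h, and 45 to 48 for the line effect at 8 h minus 4 h. Median log2FC of the members stayed between -2.03 and -1.94 at 8 h. Replicate numbers in the labels are shared between groups but not said to pair libraries. Of 21 same-numbered pairs, 6 had deviations from the group mean that correlated above 0.1 (range -0.19 to 0.28). Between the lines, same-numbered pairs ran from 0.02 to 0.28 at 4 h and from 0.05 to 0.28 at 8 h. These values do not settle whether libraries were paired. With the replicate block the count changed by over 1.5 times only in Col-0 at 4 h, to 1. At 0 h members are given by range and median, without values for single genes under the alternatives. Depth limited little here, as the scarcest value, LHCB2.3 in 35S:RPS4 at 8 h, rested on 86 to 177 counts a library.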
